A study of Mus musculus with 24 samples.

Results

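The PPAR receptors, their RXR partners, the ERR receptors and the PGC1 coactivators were followed across liver, brain, heart and muscle of Rap1 knockin (Rap1 KI) and wild-type (WT) mice. The set holds 10 genes, chosen by symbol: Ppara, Ppard, Pparg, Rxra, Rxrb, Rxrg, Esrra, Esrrg, Ppargc1a and Ppargc1b. These were 10 of 21368 genes that could be named on the array, and 16 probes measured them. RAP1, encoded by Terf2ip, is a telomere protein that is also reported to act on Ppara and Ppargc1a away from telomeres, and the comparisons below ask whether transcript levels of this receptor network differed between genotypes and between tissues.

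Each group held 3 female mice, 8 groups in all on 24 one-colour arrays. Rap1 KI mice carried the I312R substitution, made by genome editing, and were homozygous according to the study's description. WT mice carried the unedited allele. In each genotype 2 mice were 15 months old and 1 was 14 months old, and all came from a line back-crossed to C57BL6. The same 6 mice gave all 4 tissues. They are called A, B and C (KI) and D, E and F (WT), with C and F the 14-month animals. The tissues were whole, so a lower level from fewer cells of a type and one from less RNA per cell cannot be told apart. Only females of 1 edited line were measured.

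PPARs are nuclear receptors that are switched on by fatty acids and their derivatives. They bind DNA as pairs with an RXR receptor and switch on genes for taking up, storing and burning fat. ERR receptors have no known natural ligand and act on mitochondrial genes, largely through the coactivators PGC1alpha (Ppargc1a) and PGC1beta (Ppargc1b), which bind to PPARs and ERRs and recruit the transcription machinery. In liver PPARalpha drives the response to fasting, whereas in heart and oxidative muscle PGC1 and ERR proteins maintain mitochondrial mass.

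Promoter sequence is shown for Ppara and Ppargc1a, the pair on which RAP1 is reported to act, and for Rxra, whose downstream window was 1 of the 4 member windows with a nuclear receptor half-site. The windows are from RefSeq on build GRCm38.p6, 250 bases before to 50 after a gene start, read 5′ to 3′ on the gene's strand, with capitals marking the letters of a motif found by search. The Ppara window is chr15:85735526-85735825 on the + strand, the Ppargc1a window chr5:51567676-51567975 on the - strand, and the Rxra window chr2:27709042-27709341 on the + strand.
Ppara: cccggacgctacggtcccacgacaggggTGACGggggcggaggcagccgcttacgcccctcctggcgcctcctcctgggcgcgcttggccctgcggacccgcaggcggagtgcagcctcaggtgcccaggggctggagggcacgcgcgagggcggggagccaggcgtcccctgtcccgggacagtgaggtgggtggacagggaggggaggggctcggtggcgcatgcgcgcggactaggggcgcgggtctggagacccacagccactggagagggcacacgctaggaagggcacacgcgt
Ppargc1a: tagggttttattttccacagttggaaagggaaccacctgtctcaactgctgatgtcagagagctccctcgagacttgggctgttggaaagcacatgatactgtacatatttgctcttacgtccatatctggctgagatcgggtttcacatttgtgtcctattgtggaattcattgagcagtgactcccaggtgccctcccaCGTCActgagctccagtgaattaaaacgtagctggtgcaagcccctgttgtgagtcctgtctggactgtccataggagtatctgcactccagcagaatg
Rxra: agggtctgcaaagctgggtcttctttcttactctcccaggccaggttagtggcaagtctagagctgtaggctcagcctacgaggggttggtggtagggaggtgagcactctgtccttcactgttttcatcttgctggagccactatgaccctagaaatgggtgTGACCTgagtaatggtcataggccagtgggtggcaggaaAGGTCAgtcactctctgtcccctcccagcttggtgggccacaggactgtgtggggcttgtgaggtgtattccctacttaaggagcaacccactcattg

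The table of promoters held 17 windows for 9 of the 10 genes. The search covered 4 motifs on both strands. A half-site bound by PPAR, RXR and ERR receptors reads AGGTCA. An extended half-site bound by ERR receptors, which contains the shorter motif, reads TCAAGGTCA. The telomere repeat unit reads TTAGGG. A half-site of the cAMP response factor CREB reads TGACG. The nuclear receptor half-site AGGTCA was in 4 of the 17 windows (of Pparg, Rxra and Rxrg) and in 16.3% of all 32851 promoter windows. The Rxra window held it at positions -87 and -48 from the start, once on each strand. TGACG was in the windows of Ppara (position -222), Ppargc1a (position -49, opposite strand), Ppard and Rxrb, and in 20.8% of all windows. TTAGGG was in none of the 17 member windows and in 10.6% of all windows. TCAAGGTCA was in none of the 17 and in 0.423% of all windows. A match describes letters in the window and is not a measured binding site.

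Levels are given as log2 of the scanner's processed signal minus that array's 75th percentile, so 0 marks that percentile. They compare a gene with itself across arrays and not 1 gene with another. All 16 probes were well above background on all 24 arrays, so the filter on dim probes removed none of the 10 genes.

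The tissue labels were checked against marker lists. The 8 hepatocyte markers summed to 11.4 to 12.3 in liver, the 8 cardiomyocyte markers to 11.1 to 11.6 in heart and the 8 skeletal fibre markers to 12.1 to 12.7 in muscle, each above all arrays of the other tissues. The 8 neuron and glia markers summed to 7.91 to 8.22 in brain, and to as much as 7.95 in muscle, where 4 of the 8 were above background on all arrays of a genotype against 8 of 8 in brain. Of the brains, that of KI C carried liver transcripts: albumin (Alb) was 6.53 there and between -7.11 and -0.82 in the other 5 brains. The liver of KI C carried the muscle myosin Myh4 at 1.45, against at most -5.64 in the other livers. Atrial genes were high in the hearts of KI B and WT E, and slow-fibre genes were low in the muscles of KI A and WT E. Terf2ip itself had KI minus WT differences from -0.33 (liver) to -0.07 (muscle) on the log2 scale, with adjusted p of 0.515 to 1.00 (limma). A point substitution is not expected to remove the transcript, so this level does not check the genotype labels.

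**Figure D1:**
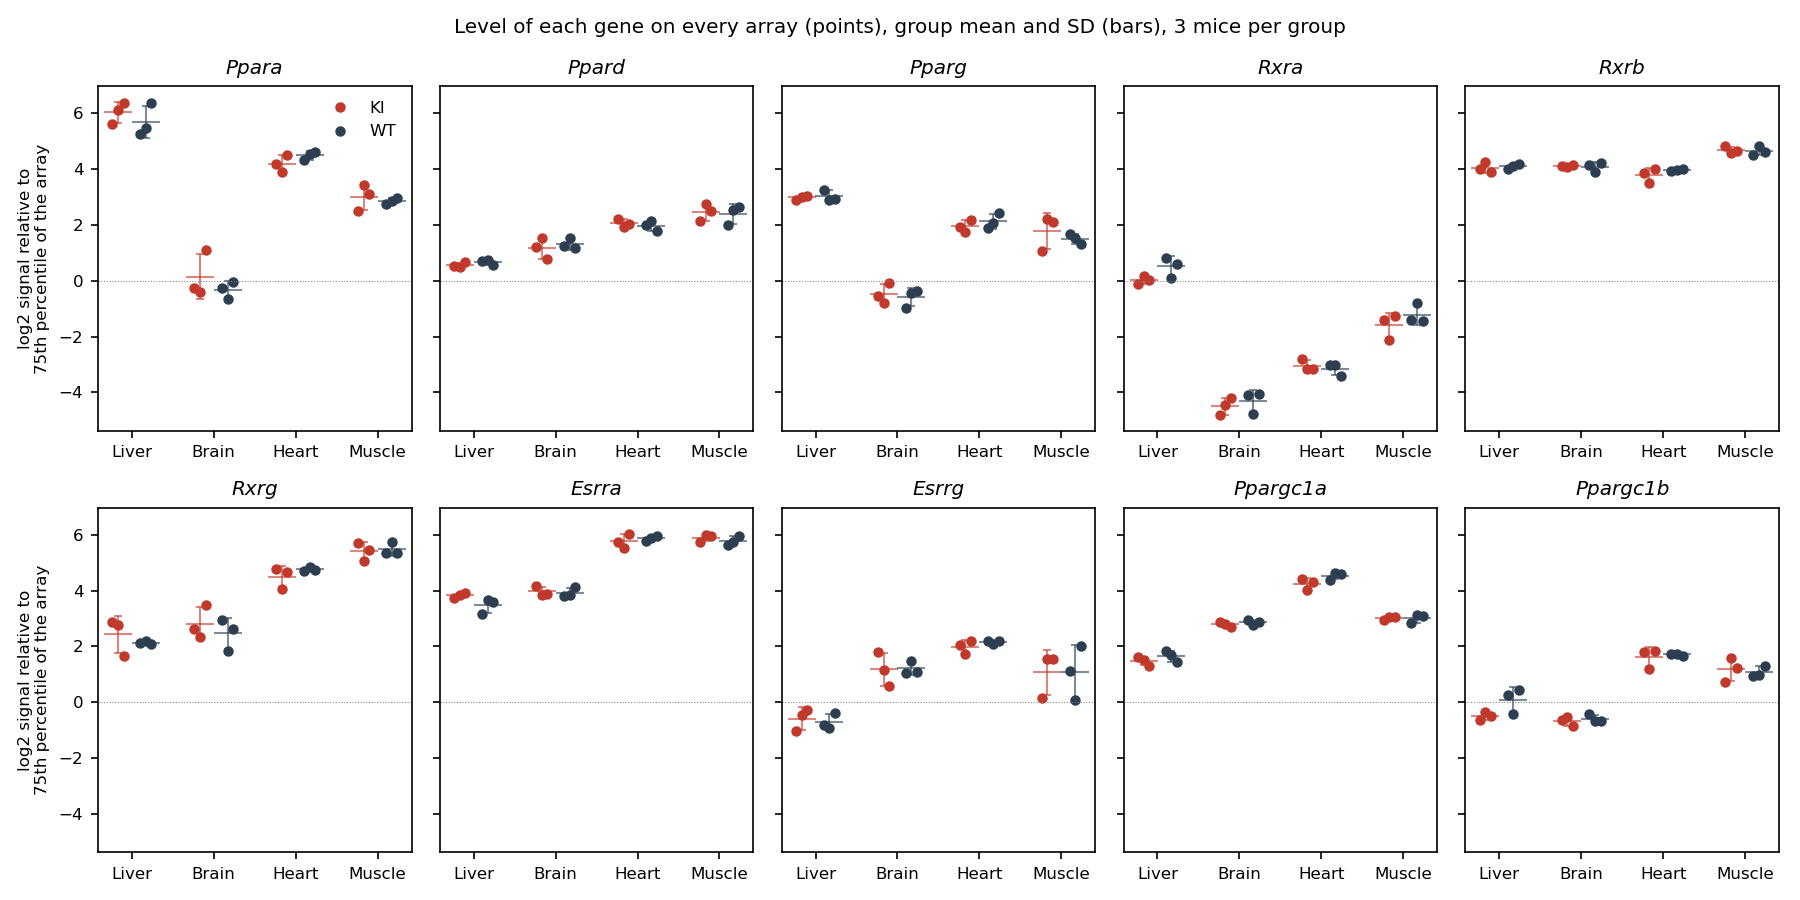
Level of each of the 10 genes (log2 signal minus the array's 75th percentile, vertical axis) in 4 tissues (horizontal axis), with 1 point per mouse, red for Rap1 KI and dark blue for WT. Horizontal bars are group means and vertical bars SD of 3 mice. Ppara and Rxra span the widest range between tissues, 5.95 and 4.66, whereas KI and WT points overlap in every tissue except for Esrra in liver.

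Ppara, the fatty acid receptor of the fasted liver, was highest in liver, then heart, muscle and brain. In liver it was 5.60, 6.13 and 6.35 in KI A, B and C and 5.27, 5.47 and 6.35 in WT D, E and F. In heart it was 4.17, 3.88 and 4.49 in KI and 4.32, 4.54 and 4.61 in WT. The 6 livers were all above the 6 hearts, and the difference was 1.53 (SE 0.25, 2.88-fold, adjusted p = 1.59e-05, limma). In muscle the 6 levels ran from 2.50 to 3.43, and the hearts were higher by 1.40 (SE 0.25). Brain levels of the KI mice were -0.25, -0.39 and 1.08, and those of the WT mice -0.27, -0.66 and -0.05, and liver exceeded brain by 5.95 (SE 0.25, 61.9-fold). All 3 neighbouring steps of the order liver, heart, muscle, brain passed the test.

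Pparg, the receptor of fat storage in adipocytes, had the same order with a narrower range. Its 6 livers ran from 2.89 to 3.26, the hearts from 1.74 to 2.43, the muscles from 1.05 to 2.22 and the brains from -0.97 to -0.08. Liver exceeded heart by 0.97 (SE 0.19, adjusted p = 1.03e-04) and brain by 3.54 (SE 0.19, 11.6-fold). Heart and muscle overlapped and differed by 0.39 (SE 0.19, adjusted p = 0.0729), which does not place 1 above the other. The same difference passed under quantile normalization (0.52, adjusted p = 0.0198) and without KI B (0.55, adjusted p = 0.0264). Transcripts of the white adipocyte list were present in muscle and heart. The summed level of its 8 markers was 7.82 to 9.07 in muscle, 8.39 to 8.96 in heart, 2.02 to 3.12 in liver and 0.04 to 0.85 in brain. The sums of heart and muscle were close, but adipocyte-defining genes were lower in heart: Adipoq averaged -1.08 in heart and 3.55 in muscle, and Plin1 -2.72 and 1.74. Fabp4 averaged 7.21 and 7.02, and Lpl 8.09 and 5.68. The heart sum therefore came largely from Lpl and Fabp4 and does not measure adipocyte content. The part of adipocytes in the Pparg levels was not tested.

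Ppard, the broadly expressed PPAR linked to fat oxidation in muscle, ran the other way, highest in muscle and lowest in liver. In liver it was 0.52, 0.50 and 0.65 in KI and 0.72, 0.73 and 0.56 in WT. In muscle it was 2.14, 2.75 and 2.50 in KI and 1.98, 2.53 and 2.64 in WT, and all 6 muscles were above all 6 livers by 1.81 on average (SE 0.14, 3.51-fold). Hearts ran from 1.79 to 2.21 and brains from 0.77 to 1.54. Muscle exceeded heart by 0.41 (SE 0.14, adjusted p = 0.0162) with overlapping arrays, and that call was lost under quantile normalization (adjusted p = 0.158), without KI B (adjusted p = 0.0803) and without WT F (adjusted p = 0.124).

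Among the obligate partners, Rxra was highest in liver, where RXRalpha is the main RXR. Its levels were -0.12, 0.18 and 0.02 in KI livers and 0.83, 0.11 and 0.60 in WT livers. Muscles ran from -2.12 to -0.79, hearts from -3.40 to -2.81 and brains from -4.82 to -4.04. None of these ranges overlapped. Liver exceeded muscle by 1.68 (SE 0.18), muscle exceeded heart by 1.69 (SE 0.18) and heart exceeded brain by 1.30 (SE 0.18), and the ends differed 25.4-fold. A second Rxra probe placed the tissues in the same order, with brain and heart closer together at -3.49 and -3.32.

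Rxrg, the RXR of striated muscle, was highest in muscle (5.07 to 5.74 over 6 arrays) and heart (4.07 to 4.83). The brains ran from 1.85 to 3.48 and the livers from 1.67 to 2.86. Muscle exceeded heart by 0.82 (SE 0.23, adjusted p = 0.00502) and liver by 3.16 (SE 0.23, 8.95-fold), and under quantile normalization the step from heart to muscle did not pass (adjusted p = 0.151). Brain and liver were not separated at this scaling (liver minus brain -0.36, SE 0.23, adjusted p = 0.160). Brain was called higher under quantile normalization (-0.78, adjusted p = 0.00590), normexp (-0.90, adjusted p = 0.00282) and z-scores (adjusted p = 0.0138), and without KI B (-0.57, adjusted p = 0.0415). The second Rxrg probe told less of this pattern: its tissue means were 4.11 in muscle, 3.69 in heart, 3.69 in liver and 3.21 in brain, and it correlated at r = 0.57 with the first over the 24 arrays, against 0.94 to 1.00 for the probe pairs of the other 4 genes with several probes. Which Rxrg probe reports the transcript was not tested.

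Rxrb, the ubiquitous RXR, varied least, by 0.79 between the highest and lowest tissue means. The muscles ran from 4.52 to 4.84, the brains from 3.91 to 4.21, the livers from 3.89 to 4.24 and the hearts from 3.50 to 4.01. Muscle was the highest tissue, above brain by 0.57 (SE 0.10, adjusted p = 2.48e-05). Its direction against brain depended on the scaling: under quantile normalization brain was higher by 0.23 (adjusted p = 0.00693). The order of the tissues for Rxrb is therefore not fixed by these arrays.

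**Figure D2:**
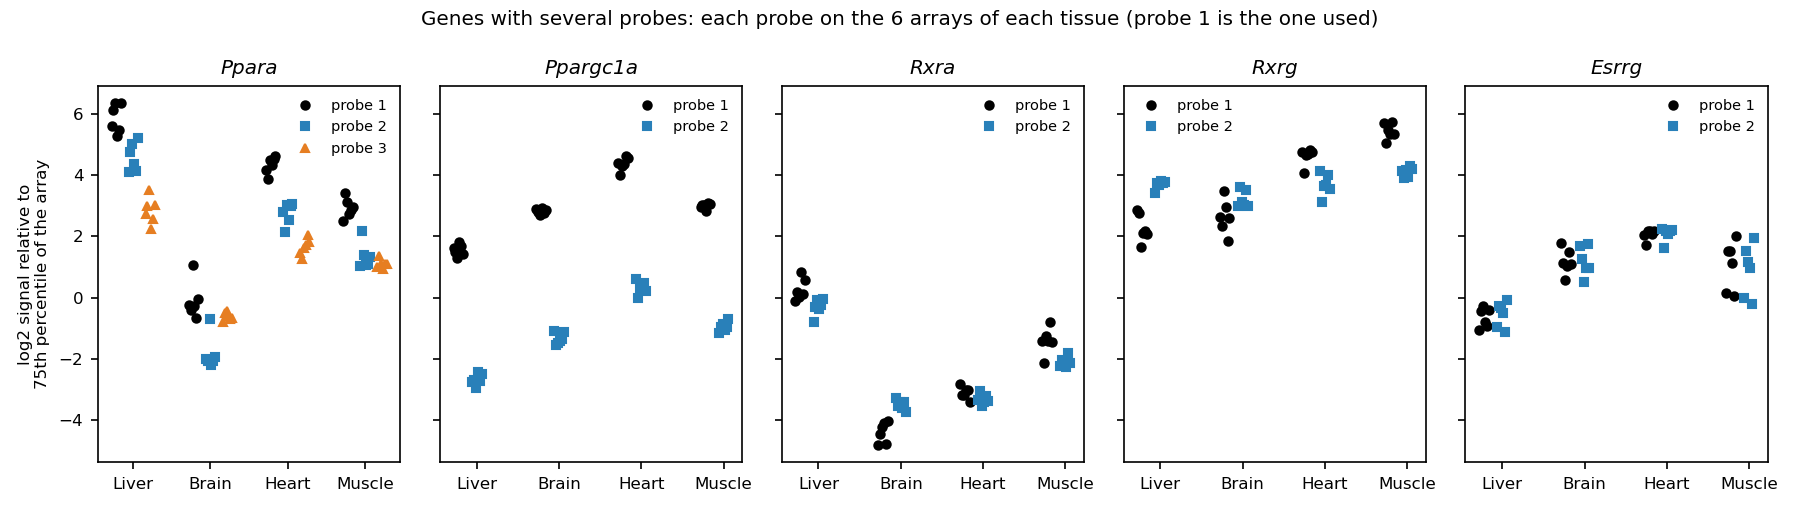
Every probe of the 5 genes with more than 1 probe, on the 6 arrays of each tissue (horizontal axis), as log2 signal minus the array's 75th percentile (vertical axis). Marker shape and colour stand for the probe, and probe 1 is the one used. For Rxrg probe 1 runs from 2.28 in liver to 5.45 in muscle on average whereas probe 2 stays between 3.21 and 4.11.

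Esrra, the ERR that works with PGC1alpha on respiratory chain genes, was high in both striated muscles. It was 5.74, 5.53 and 6.02 in KI hearts, 5.76, 5.89 and 5.95 in WT hearts, 5.74, 5.98 and 5.97 in KI muscles and 5.64, 5.74 and 5.97 in WT muscles. These 2 tissues were not separated (heart minus muscle -0.03, SE 0.11, 95% interval from -0.26 to 0.20). Brains ran from 3.80 to 4.16 and livers from 3.18 to 3.91, and heart exceeded liver by 2.16 (SE 0.11, 4.48-fold) with no overlap. Under quantile normalization heart was above muscle by 0.37 (adjusted p = 0.00258).

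Esrrg, an ERR enriched in heart and oxidative fibres, was highest in heart (1.72 to 2.19 over 6 arrays) and lowest in liver (-1.04 to -0.27). Heart exceeded liver by 2.71 (SE 0.30, 6.56-fold) and brain by 0.87 (SE 0.30, adjusted p = 0.0118), the latter lost without KI C (adjusted p = 0.0750) or without WT D (adjusted p = 0.0574). Brain (0.59 to 1.79) and muscle (0.06 to 2.03) were not separated, with a difference of 0.12 (SE 0.30, adjusted p = 0.719). The muscles fell far apart: 0.15, 1.53 and 1.54 in KI A, B and C and 1.13, 0.06 and 2.03 in WT D, E and F. The low muscles, KI A and WT E, were also those with the lowest Myh7, the slow-fibre myosin: Myh7 was 1.75 in KI A and 2.38 in WT E, and between 5.34 and 9.60 in the other 4. Tnnt1, slow troponin T, was 2.01 and 2.52 in the same mice and 5.27 to 9.42 in the others. Myh7 and Tnnt1 were looked up after the Esrrg levels had been seen, and their part in the spread was not tested.

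Ppargc1a, the inducible coactivator of mitochondrial biogenesis, was highest in heart and lowest in liver. In heart it was 4.40, 4.00 and 4.32 in KI and 4.38, 4.63 and 4.58 in WT. In liver it was 1.62, 1.50 and 1.31 in KI and 1.83, 1.68 and 1.44 in WT. Every heart was above every liver, by 2.82 on average (SE 0.09, 7.07-fold, adjusted p = 2.46e-15), and above every muscle, by 1.38 (SE 0.09, 2.60-fold). Muscle was 2.95, 3.04 and 3.04 in KI and 2.82, 3.11 and 3.07 in WT, whereas the brains ran from 2.69 to 2.93. Muscle was above brain by 0.18 (SE 0.09, adjusted p = 0.0909), and under quantile normalization brain was above muscle by 0.26 (adjusted p = 0.00611), so these 2 tissues have no settled order. The second Ppargc1a probe correlated at r = 0.99 with the first.

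Ppargc1b, the related coactivator that serves basal mitochondrial and lipogenic programmes, was also highest in heart. The hearts ran from 1.19 to 1.84, the muscles from 0.72 to 1.60, the livers from -0.63 to 0.44 and the brains from -0.86 to -0.42. Heart exceeded muscle by 0.53 (SE 0.16, adjusted p = 0.00771) with overlapping arrays, and exceeded liver by 1.86 (SE 0.16, 3.63-fold) with none. The step from muscle to heart was lost without KI A (adjusted p = 0.0780). Liver exceeded brain by 0.43 (SE 0.16, adjusted p = 0.0185), a call that was lost without KI C, without WT D or without WT F (adjusted p of 0.0803, 0.0532 and 0.115), and with slide as a block (adjusted p = 0.215).

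All 10 genes differed between tissues in the moderated F-test over 24 arrays, as did 97.9% of the 16864 genes tested, so the share of calls says nothing particular about this network. In the pairwise tests 4 of the 10 genes were called higher and 4 lower in liver than brain, where 45.7% and 39% of all genes were. Against heart, 3 were higher and 6 lower in liver (35.4% and 39.6% of all genes), and against muscle 3 were higher and 7 lower in liver (35.6% and 44.4%). Brain was higher than heart for 1 gene and lower for 9 (35.5% and 44.2%), and higher than muscle for 0 and lower for 8 (36% and 46.6%). Heart was higher than muscle for 4 and lower for 4 (29.9% and 35.5%). The members' median difference of brain minus muscle was -1.83, against -0.26 over all genes, and that of brain minus heart was -1.71, against -0.17 over all genes. Liver and brain RNA was extracted with 1 kit and heart and muscle RNA with another, so kit and tissue cannot be told apart in liver or brain against heart or muscle.

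Of the 60 combinations of gene and tissue pair 53 were called, and 49 kept sign and call under quantile normalization, normexp with quantile normalization and the deposited z-scores. The scaling moved the median of all genes by over 0.1 between some tissues: liver minus brain was 0.18 at the 75th percentile and -0.07 after quantile normalization, and brain minus muscle -0.26 and 0.05. Tissues were spread over 3 slides, with liver and part of the brains on slide 1, the rest of the brains and part of the hearts on slide 2, and the rest of the hearts and all muscles on slide 3. Of 26 called differences that could also be formed between tissues on 1 slide, 26 kept their sign there, on part of the same arrays. In limma fits with slide as a block, calls were lost in liver against brain for Ppargc1b (adjusted p = 0.215) and Esrra (0.0554). Calls were also lost for Rxrb in muscle against liver (0.123) and against brain (0.0744). In heart against muscle those of Ppard (0.0559) and Rxrg (0.0846) were lost and that of Pparg was gained (0.0385). Within a slide Ppara was 6.12 higher in liver than brain, and Ppargc1a was 1.44 higher in heart than muscle.

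In the comparison of genotypes, none of the 10 genes passed the test in any tissue. In limma fits within each tissue 0 of 10 genes were called in liver, brain, heart or muscle at an adjusted p under 0.05, and 0% of all genes were called in each (of 14091, 16073, 14929 and 13515 tested). At an unadjusted p under 0.05 there was 1 of the 10 in liver (11.7% of all genes) and 0 in brain (0.79%), heart (1.63%) and muscle (0.851%). The differences ran from -0.58 to 0.48 on the log2 scale over 40 combinations of gene and tissue, with a median size of 0.12. The 95% intervals reached 0.28 to 1.37 either side, with a median of 0.46. The fits were also run on simulated data for 21200 genes without the filter on dim probes. Known changes were added to a small share of these genes, and the rates depend on that share. Each simulated gene had 1 spread, averaged over the 8 groups, so the rates do not carry the spread of a given tissue. A log2 change of 1 in 1 tissue was recovered for 0% of the changed genes for liver, heart and muscle and 1% for brain. A log2 change of 2 was recovered for 40% for liver, 40% for brain, 44% for heart and 36% for muscle. When the change was in all 4 tissues and the mean per mouse was tested, 52% were recovered at 1 and 87% at 2. At that averaged spread and share of changed genes, a change of 1 in 1 tissue would mostly go uncalled with 3 mice a group.

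**Figure D3:**
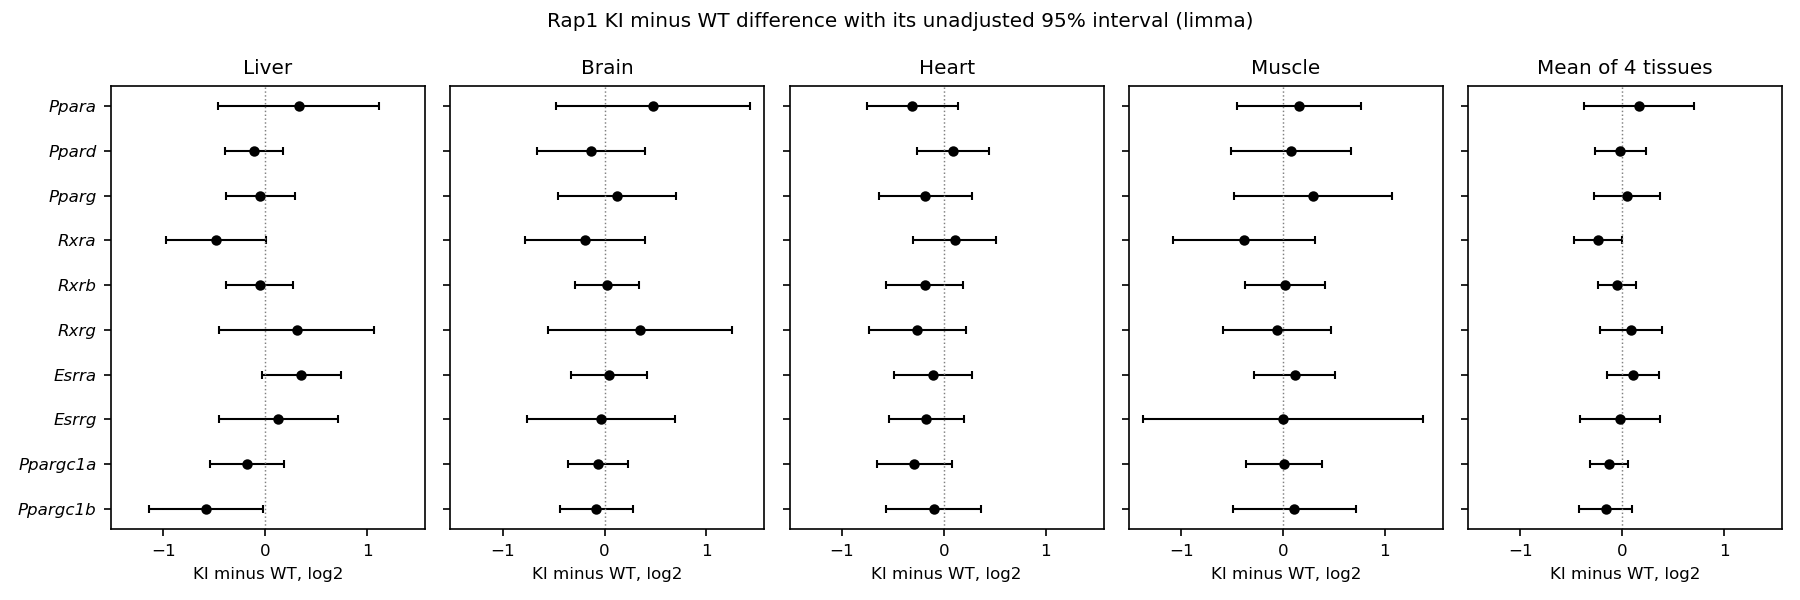
Rap1 KI minus WT difference (log2, horizontal axis) of the 10 genes in 4 tissues and in the mean of 4 tissues, with the unadjusted 95% interval from limma (3 mice per genotype). The interval of Ppargc1b in liver, from -1.14 to -0.02, is the only one that leaves out 0, and its adjusted p was 0.421.

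In liver the members with the smallest p were Ppargc1b, Rxra and Esrra. Ppargc1b was -0.63, -0.37 and -0.48 in KI livers and 0.25, -0.41 and 0.44 in WT livers, so WT E lay among the KI mice. The difference was -0.58 (SE 0.23, adjusted p = 0.421, limma). Rxra was lower in KI by 0.48 (95% interval from -0.97 to 0.01, adjusted p = 0.430), with KI B at 0.18 above WT E at 0.11. The second Rxra probe differed by -0.17. Esrra was 3.75, 3.83 and 3.91 in KI and 3.18, 3.66 and 3.58 in WT. All 3 KI livers were above all 3 WT livers, by 0.36 on average (SE 0.16, adjusted p = 0.442). Esrra was the 1 member of 10 whose genotypes did not overlap in liver, where 19.7% of all genes did not.

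The reported targets of RAP1 gave intervals that included 0 in every tissue. Ppara in liver was higher in KI by 0.33 (95% interval from -0.46 to 1.12, adjusted p = 0.669), and WT F at 6.35 was level with the highest KI liver. Its other probes differed by 0.06 and 0.46. Ppargc1a in liver was lower in KI by 0.18 (95% interval from -0.54 to 0.19, adjusted p = 0.617). In heart Ppara was lower in KI by 0.31 (SE 0.19) and Ppargc1a by 0.29 (SE 0.16), both with an adjusted p of 0.971. The other Ppara probes differed by -0.20 and -0.40 in heart. In muscle Ppara was 0.16 higher in KI (SE 0.26), and Ppargc1a was 0.01 higher (95% interval from -0.36 to 0.38). In brain Ppargc1a was 0.06 lower in KI (SE 0.13). The second Ppargc1a probe differed by -0.25 in liver, -0.07 in heart, -0.08 in muscle and -0.08 in brain.

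The largest member difference in brain was that of Ppara, 0.48 higher in KI (SE 0.40, adjusted p = 1.00), and it rested on KI C. That brain had a Ppara level of 1.08, against at most -0.05 in the others, and a summed hepatocyte marker level of 8.63, against 5.41 to 6.96 in the other brains. Its excess over the other brains was a median of 3.54% of the linear signal in the liver of the same mouse over the 8 hepatocyte markers (range 1.17% to 16.4%), and for Ppara it was 1.61%. Adding the median share of that liver's signal to the other brains gave a Ppara level of 1.89. Without KI C the genotype difference of Ppara was 0.01. On the second Ppara probe KI C was also the highest brain, at -0.69 against at most -1.93, and on the third it was -0.43 against at most -0.51. KI C was the highest brain for 3 of the 10 genes and the lowest for 4. Among the 3 was Rxrg, at 3.48 in that brain and 1.67 in the liver of the same mouse on the probe used. On the second Rxrg probe KI C was at 3.11 in brain and 3.67 in liver, and the highest brain was KI B at 3.62. The part of liver transcripts in these levels was not tested. The genotypes overlapped in brain for all 10 genes (2.86% of all genes did not overlap). Brains lay on 2 slides: the Ppara difference was 0.02 on slide 1, which held 1 brain per genotype, and 0.70 on slide 2, which held KI C, and that of Ppargc1a was -0.05 and -0.07.

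In heart 8 of the 10 members had a lower mean in KI than WT, with a median difference of -0.18 against -0.05 over all genes, and none passed the test. The heart of KI B was the lowest of the 6 for 8 of the 10 genes, among them Ppara (3.88), Ppargc1a (4.00), Ppargc1b (1.19), Esrra (5.53) and Esrrg (1.72). The same heart had the highest atrial transcripts: Myl7, the atrial myosin light chain, was 7.44 there, 4.27 in WT E and at most 0.18 in the other 4. WT E, with the next highest Myl7, had the highest Ppargc1a of all hearts on the probe used (4.63). On the second Ppargc1a probe KI A was highest, at 0.63 against 0.47 in WT E. Without KI B the KI minus WT difference was -0.16 for Ppara and -0.17 for Ppargc1a, and it turned to 0.11 for Ppargc1b and to 0.01 for Esrra. The part of atrial tissue was not tested. No member had non-overlapping genotypes in heart (5.03% of all genes had). On slide 2, with 2 hearts per genotype, Ppara differed by -0.40 and Ppargc1a by -0.30, and on slide 3, with 1 per genotype, by -0.12 and -0.26.

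In muscle 8 of the 10 members had a higher mean in KI, with a median difference of 0.05 against 0.02 over all genes, whereas 4 of 10 did in liver and 5 of 10 in brain. The muscle of KI B was the highest of the 6 for 5 of the 10 genes and the lowest for 2. Without it the difference was -0.05 for Ppara, -0.07 for Ppard, -0.00457 for Ppargc1a, -0.09 for Ppargc1b and -0.23 for Esrrg. That of Rxrg turned to 0.12. The differences in muscle ran from -0.38 for Rxra (SE 0.29) to 0.29 for Pparg (SE 0.33), and no genotypes were separated for any of the 10 genes (3.54% of all genes were). Pparg was 1.05, 2.22 and 2.12 in KI muscles and 1.69, 1.51 and 1.31 in WT muscles. Adipoq, made by adipocytes, was 2.89, 3.78 and 4.65 in the same KI muscles and 3.98, 3.53 and 2.48 in the WT muscles, and Ucp1, the uncoupling protein of brown fat, was 2.91 in KI B, 2.59 in WT D and at most -1.89 in the rest. Esrrg had the widest interval of the 40, from -1.37 to 1.38, and each genotype held 1 of the muscles with low slow-fibre transcripts. Without WT E its difference was -0.50 and without KI A 0.46.

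**Figure D4:**
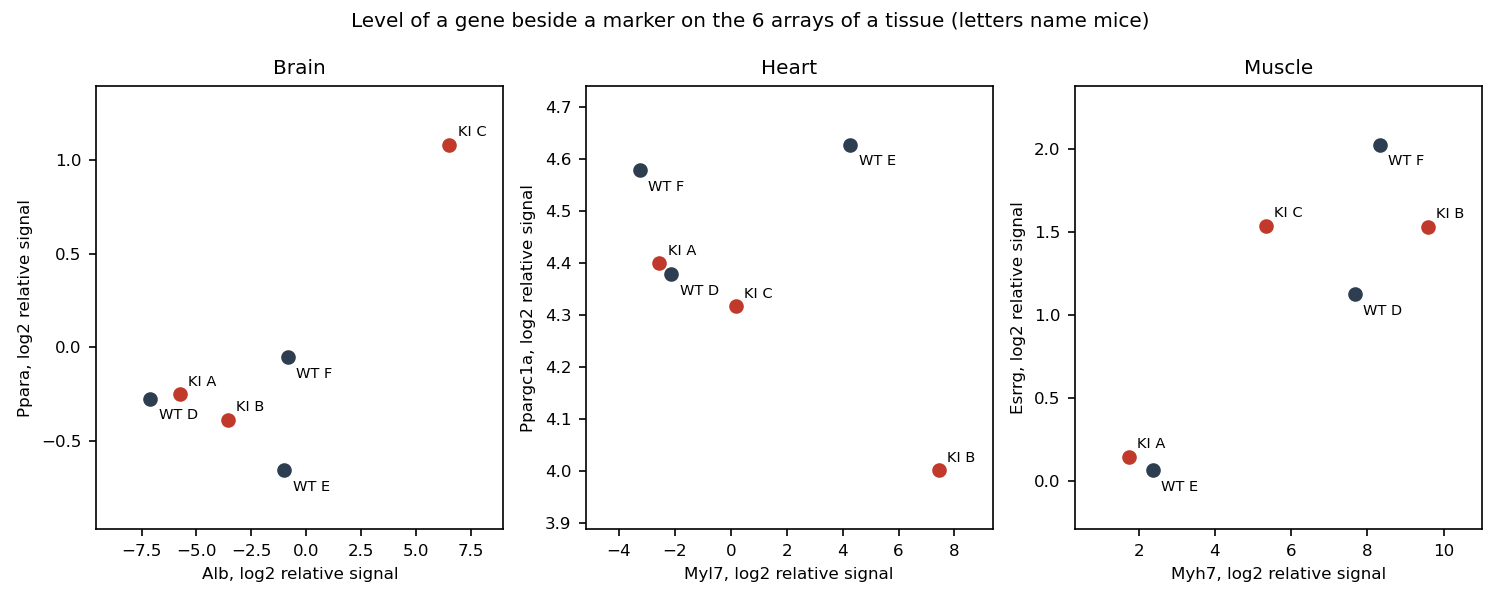
Ppara beside albumin (Alb) in the 6 brains, Ppargc1a beside atrial Myl7 in the 6 hearts, and Esrrg beside slow-fibre Myh7 in the 6 muscles, all as log2 relative signal, red for Rap1 KI and dark blue for WT, with letters naming mice. KI C stands apart among brains (Alb 6.53, Ppara 1.08), KI B among hearts (Myl7 7.44, Ppargc1a 4.00), and KI A and WT E among muscles (Esrrg 0.15 and 0.06).

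Averaging the 4 tissues of each mouse gave 6 values per gene. None of the 10 genes was called (0% of 17296), and 0 had an unadjusted p under 0.05 (3.47% of all genes had). The smallest p was that of Rxra, -0.24 in KI (SE 0.10, 95% interval from -0.48 to 0.00, adjusted p = 0.983, limma), followed by Ppargc1a, -0.13 (SE 0.08, 95% interval from -0.32 to 0.06). For these 2 genes all 3 KI means lay below all 3 WT means on the probes used. They were 2 of the 10, where 9.04% of all genes had non-overlapping means. The second Rxra probe was lower in KI livers and muscles (-0.17 and -0.07) but higher in KI brains and hearts (0.18 and 0.02). Brain was lower in KI on the first probe (-0.19), so the Rxra difference in the mean of 4 tissues rests on the first probe. The Ppara mean was 0.16 higher in KI (95% interval from -0.38 to 0.70). A test of whether the genotype effect differed between tissues called 0 of the 10 genes and 0% of all genes, with the smallest p among the 10 for Ppargc1b and the largest for Esrrg.

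The wider pathway was read from 7 lists that hold 79 other genes: 3 further PGC1 and ERR family genes, 7 coactivators, 4 corepressors, 10 regulators of PGC1 activity, 11 other RXR partners, 31 PPAR target genes and 13 PGC1 and ERR target genes. Between genotypes no list gene was called, with 74 tested for liver, 71 for brain, 75 for heart and 73 for muscle. At an unadjusted p under 0.05 liver had 6 of 74 (3 higher and 3 lower in KI, where 11.7% of all genes passed), heart had 1 of 75 (1.63%), and brain (0.79%) and muscle (0.851%) had 0. The median KI minus WT difference over the 7 lists together was 0.05 for liver (all genes 0.04), 0.01 for brain (all genes -0.03), -0.12 for heart (all genes -0.05) and 0.02 for muscle (all genes 0.02).

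In liver the genes with the smallest p in either direction were Fabp4 and Cd36, higher in KI, and Uqcrc1 and Nr1i2, lower. Cd36, which takes up fatty acids, was 2.89, 3.28 and 3.54 in KI livers and 0.50, 1.64 and 2.75 in WT livers, a difference of 1.60 (SE 0.54, adjusted p = 0.402). Fabp4, a fatty acid binding protein of adipocytes and macrophages, was 2.03, 1.58 and 2.15 in KI and 1.22, 1.36 and 1.41 in WT, a difference of 0.59 (SE 0.17, adjusted p = 0.387). Uqcrc1, a core subunit of respiratory complex III, was lower by 0.43 (SE 0.13, adjusted p = 0.399), and Nr1i2, the xenobiotic receptor PXR, by 0.47 (SE 0.16, adjusted p = 0.402). For all 4, which were picked by smallest p, the KI livers did not overlap the WT livers, and none passed the test. Of the 74 list genes tested in liver, 3 had all KI livers above all WT livers and 5 had them below. Over all genes, 19.7% did not overlap in liver. Macrophage markers were also apart: the 4 genes summed to 5.14 to 5.36 in KI livers and 4.55 to 4.71 in WT livers. The white adipocyte list, which holds Fabp4, summed to 2.48 to 3.12 in KI and 2.02 to 2.38 in WT, with 4 to 6 of its 8 genes above background on each liver array. Fabp4 is part of that sum, which is not a separate measure of it: in KI A the sum was 2.56 with Fabp4 at 2.03. Of its defining genes, Cidec was above background in 6 of 6 livers, Adipoq in 3 of 6 and Plin1 in 0 of 6. Cidec overlapped between genotypes, at -1.78, 0.15 and 0.71 in KI and -1.31, -1.43 and 0.38 in WT, as did Adipoq. On the other marker lists the genotypes overlapped in liver: hepatocyte, neuron and glia, cardiomyocyte, skeletal fibre, brown adipocyte, mammary epithelium and red blood cell. The part of other cell types was not tested.

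In the other tissues the genes chosen in the same way had adjusted p of 0.971 to 1.00. In brain Ehhadh and Plin2, PPAR target genes of peroxisomal oxidation and lipid droplets, were 0.67 (SE 0.41) and 0.60 (SE 0.38) higher in KI, both highest in the brain of KI C with its liver transcripts (-0.61 and 1.60), and Uqcrc1 and Mef2c were 0.30 (SE 0.16) and 0.30 (SE 0.20) lower. In heart Vnn1, a liver-enriched PPARalpha target, was 1.05 higher in KI (SE 0.37) with no overlap and highest in KI B, but it was well above background on 3 of 3 KI hearts and 1 of 3 WT hearts, so the WT level lay near background. Adipoq was 1.38 higher (SE 0.85), with its highest level, 1.38, in KI B. Ncoa1, a receptor coactivator, was 0.31 lower (SE 0.18) and Crtc2, a CREB coactivator, 0.20 lower (SE 0.13). In muscle Ncoa3 was 0.24 higher (SE 0.17) and Plin1 0.80 higher (SE 0.59), and Prkaa2, a catalytic subunit of the energy sensor AMPK, was 0.35 lower (SE 0.23) and the corepressor Nrip1 0.31 lower (SE 0.26).

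**Figure D5:**
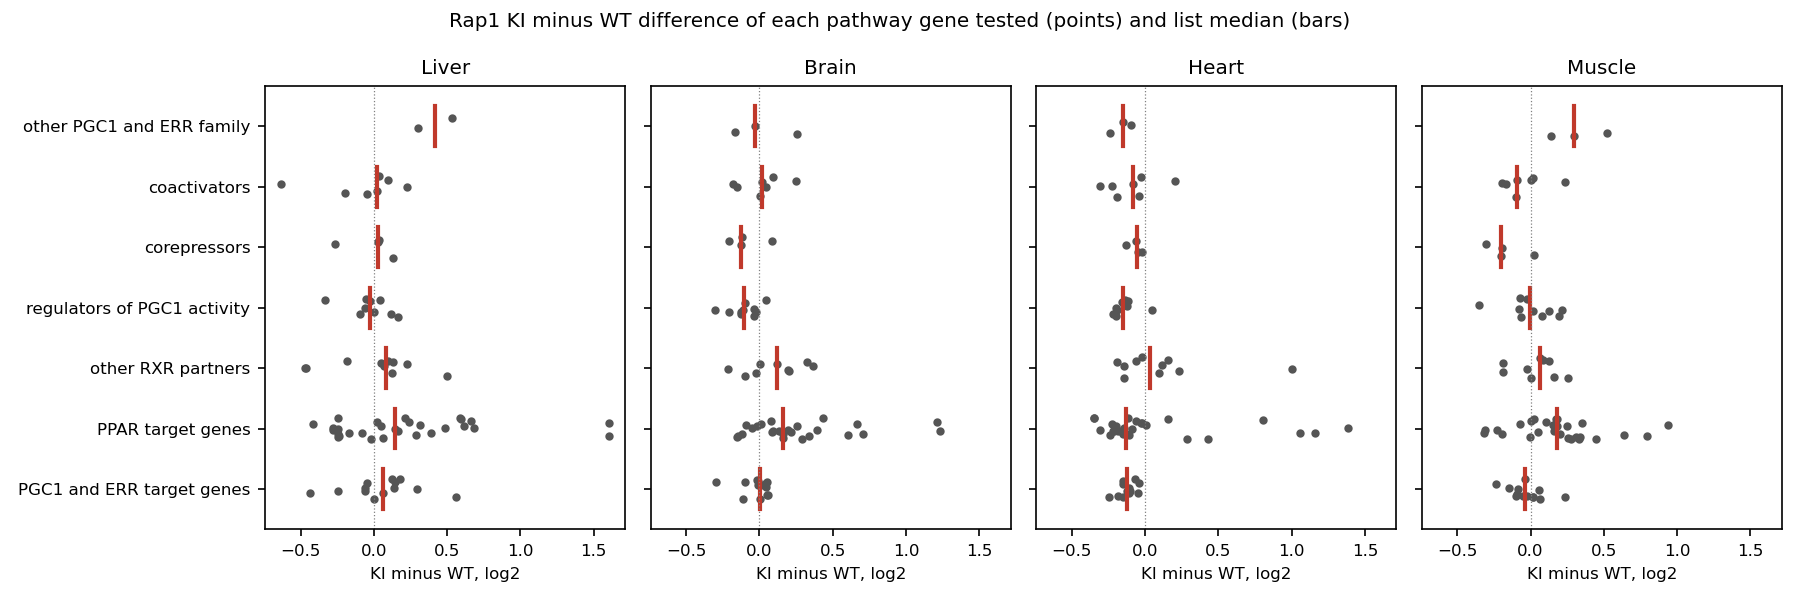
Rap1 KI minus WT difference (log2, horizontal axis) of every tested gene of the 7 pathway lists (rows) in each tissue, with 1 grey point per gene and a red bar at the list median. Medians of the PPAR target genes were 0.14 for liver, 0.16 for brain, -0.13 for heart and 0.18 for muscle, and no gene was called.

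Between tissues, of 31 PPAR target genes 14 had their highest mean in liver, 14 in heart, 3 in muscle and 0 in brain. In liver against brain 27 of the 31 were called higher and 1 lower (45.7% and 39% of all genes), in liver against heart 12 higher and 15 lower (35.4% and 39.6%), and in heart against muscle 17 higher and 2 lower (29.9% and 35.5%). Cpt1b, the carnitine transferase isoform of striated muscle, averaged -3.37 ± 0.36 in liver and 5.31 ± 0.28 in heart (SD, n = 6). Of 13 PGC1 and ERR target genes 13 were called lower in brain than heart (44.2% of all genes), and 11 were lower (39.6%) and 1 higher (35.4%) in liver than heart, as Ppargc1a, Esrra and Esrrg were. In heart against muscle 3 were higher (29.9%) and 3 lower (35.5%). Perm1, a muscle-specific regulator in the PGC1 and ERR pathway, averaged 4.98 ± 0.38 in heart and 4.72 ± 0.55 in muscle (SD, n = 6) and was above background on 1 of 6 livers. Of the further family members, Esrrb was highest in heart (3.34 ± 0.23, SD, n = 6) and Pprc1 in muscle (-0.56 ± 0.22, SD, n = 6). Cpt1b, Perm1, Esrrb and Pprc1 were chosen as examples after their values were seen.

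The genes whose profile over the 24 arrays was closest to that of a member were found by Pearson's r, which mainly reflects the 4 tissues and is given as a description. For Ppara these were Acad11 and Irf1 (r = 0.99 for both), for Ppard Jmy and Dand5 (both 0.98), for Pparg Agpat2 and Ndufab1 (both 0.98) and for Ppargc1a Clasp1 (0.99) and Ier3 (0.98). For Ppargc1b they were Kremen1 (0.98) and Tnfrsf12a (0.97), for Rxra Ddi2 and Ranbp10 (both 0.98), for Rxrb Nol12 (0.96) and Tpd52l1 (0.95), and for Rxrg Tafa3 (0.98) and Pik3c2b (0.97). Esrra was closest to Pdrg1 and Timm17a (both 0.99), and Esrrg to Ldhb and Inpp4b (both 0.94), the lowest values of the 10 genes.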

How the data were processed

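The 24 samples were Cy3-labelled total RNA from 4 tissues of 6 mice on 1-colour Agilent arrays. The authors scanned them and deposited Feature Extraction (12.0.3.1) output, in which the processed signal is a background-corrected intensity on a linear scale. The deposited series table is a score: it equals each array's z-score of log processed signal to less than 0.005, the rounding of its 2 decimals. Control spots and outlier spots (121 to 347 per array) were left out, spots of a probe were averaged as log2, and each array's 75th percentile (signals of 312 to 2519) was subtracted. Probes were named through their RefSeq accession (50.9% of probes). For genes with several probes, the probe of highest mean was used. Genes were tested where well above background on all 3 arrays of a group, with limma 3.58.1 (R 4.3.3), two-sided, and Benjamini-Hochberg adjustment over all genes tested. The arrays have no read depth: 3 mice a group limit the precision. Intervals are at 95% and unadjusted.

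The 10 genes, the pathway lists and the marker lists were chosen with earlier results of these data known. The named pathway genes were the 2 of smallest unadjusted p in each direction per tissue, whether or not they passed. For likeness, the 2 genes of highest r were taken for each member. The same mouse gave 4 tissues. Between different tissues, deviations from group means correlated by 0.02 for the same mouse and by -0.01 for different mice of a genotype (11617 genes). These values are not independent, because the deviations within a group cancel out. Alternatives were quantile normalization, normexp (offset 50) with quantile normalization, the deposited scores, no filter on dim probes, the mean over all probes of a gene, 1 fit over all arrays, mouse or slide as a block, each genotype alone, and leaving out each array or mouse. Slide as a block in the tissue comparisons was added after seeing the data. The code was tested on simulated data. Promoter windows came from a RefSeq table (GRCm38.p6). Protein and probe sequences were not used here. The level of a further pathway gene, chosen as an example, is not reported here.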

Additional observations from a re-analysis of the deposited data

How the results depend on the processing

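No count of genes called between genotypes changed under any alternative, including all arrays in 1 fit in which mouse was a replicate block (0 of the 10 genes in each tissue). That replicate block changed no other call, but its consensus correlation was -0.0013, so the fit was nearly the same as without it. The 10 genes were called between tissues in the F-test under all settings. The count called between heart and muscle was 4 with KI arrays only and 8 with all arrays. Of 360 single genotype differences under settings other than leaving out arrays, 8 changed sign, all in muscle and near 0. Muscle Ppargc1a was -0.00183 with quantile normalization, -0.00512 with normexp and quantile normalization, -0.00333 as z-scores and -0.0370 as the mean over probes. Muscle Rxrb was -0.00847 with normexp and -0.00333 as z-scores, and muscle Esrrg -0.00333 as z-scores and -0.00885 as the mean over probes.

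Between tissues 13 differences changed sign. Liver minus heart of Rxrb was -0.215 with quantile normalization, -0.327 with normexp and -0.0217 as z-scores. Liver minus brain was 0.00898 for Rxrb with WT arrays only and 0.0624 for Rxrg as the mean over probes. With quantile normalization and with normexp, brain minus muscle was 0.26 and 0.31 for Ppargc1a and 0.23 and 0.29 for Rxrb. Heart minus muscle of Esrra was 0.37 and 0.38 under the same settings, 0.0829 with WT arrays only and 0.14 with slide as a block. The cause was not tested.

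Leaving out 1 array changed the sign of 20 genotype differences within a tissue, here as the lowest and highest values. In liver these were Pparg (-0.11 to 0.0634), Rxrb (-0.15 to 0.0229) and Esrrg (-0.0291 to 0.35). In brain they were Ppard (-0.32 to 0.0717), Pparg (-0.0742 to 0.28), Ppargc1b (-0.15 to 0.0133), Rxrb (-0.0616 to 0.0917), Esrra (-0.0527 to 0.15) and Esrrg (-0.34 to 0.26). In heart they were Ppard (-0.000425 to 0.17), Ppargc1b (-0.22 to 0.11), Rxra (-0.0165 to 0.17) and Esrra (-0.23 to 0.0149). In muscle they were Ppara (-0.0538 to 0.42), Ppard (-0.12 to 0.24), Ppargc1a (-0.0807 to 0.0620), Ppargc1b (-0.0946 to 0.34), Rxrb (-0.0542 to 0.11), Rxrg (-0.21 to 0.12) and Esrrg (-0.50 to 0.48). Leaving out 1 mouse did so in the mean of 4 tissues for Ppara (-0.0450 to 0.33), Ppard (-0.0763 to 0.0546), Pparg (-0.0807 to 0.16), Rxrg (-0.0172 to 0.20) and Esrrg (-0.15 to 0.13), and between tissues for Rxrb in liver minus brain (-0.0866 to 0.0146), Esrrg in brain minus muscle (-0.27 to 0.39) and Esrra in heart minus muscle (-0.0702 to 0.0543). With 3 mice a group, whole tissue pieces and 2 extraction kits, small genotype differences and part of the tissue differences cannot be resolved by these arrays.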
